A study of Mus musculus with 12 samples.

Results

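The genes described here are the 4 adult haemoglobin genes Hba-a1, Hba-a2, Hbb-bs and Hbb-bt, together with Alas2 and Slc4a1, 2 further genes of the red cell lineage. They were taken by symbol from the deposited count table as a measure of the blood left in the tissue, and make up 6 of its 43629 gene IDs. All 6 passed the filter on low counts that left 19145 genes for testing. By their labels, the libraries were made from poly(A) RNA of mouse forebrain, pulverised while frozen, from mice aged 3 months. Markers of cerebellum and hindbrain were nonetheless high in 5 libraries, as described below. As newborns the mice had received, by injection into the cerebral ventricles, either PBS or an rAAV (an engineered virus used to deliver genes) with a collagen domain construct. The series title places that domain in the secreted protein C1qTNF3. There were 3 libraries for each of 4 groups, PBS female, PBS male, collagen domain female and collagen domain male. The labels give no strain, promoter or perfusion step for any group, and an empty rAAV was not among the groups, so vector and construct cannot be told apart. They also do not state that each library is a separate mouse, so a p-value here reflects the spread among libraries, which may be technical.

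Haemoglobin is a tetramer of alpha and beta chains, each holding a haem group, and fills the red cell. Mature red cells of mammals have no nucleus and make no RNA, while the young red cells released from the marrow (reticulocytes) still carry globin messenger RNA, so blood in a tissue brings globin reads with it. Alas2 encodes the erythroid form of 5-aminolevulinate synthase, which starts haem synthesis, and Slc4a1 encodes band 3, the anion exchanger of the red cell membrane. In bulk tissue fewer cells of a type and less RNA per cell cannot be told apart, and low globin expression in brain cells themselves is known.

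The sequences show how far the copies of each chain can be separated by short reads. The coding sequences of Hba-a1 and Hba-a2 are both 426 bases long and differ at 1 base, and those of Hbb-bs and Hbb-bt, both 441 bases long, also differ at 1 base (99.8% identity in each pair, GENCODE M21 transcripts, GRCm38). Bases 351 to 411 of the alpha coding sequences and bases 381 to 441 of the beta coding sequences are printed, with the differing base in capitals.
Hba-a1 coding: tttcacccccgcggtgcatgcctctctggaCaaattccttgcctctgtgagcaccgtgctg
Hba-a2 coding: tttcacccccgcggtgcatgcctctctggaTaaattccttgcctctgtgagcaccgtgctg
Hbb-bs coding: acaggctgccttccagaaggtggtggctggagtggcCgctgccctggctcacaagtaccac
Hbb-bt coding: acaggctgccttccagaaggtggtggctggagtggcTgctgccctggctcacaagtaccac
The reads were 75 bases long. Of the 625 windows of 75 bases in the Hba-a1 transcript, 389 (62.2%) occur unchanged in Hba-a2, where they make up 81.0% of 480 windows. Hbb-bs and Hbb-bt share 356 windows, 64.3% of the 554 of Hbb-bs and 56.6% of the 629 of Hbb-bt. No window of Hba-a1 occurs in Hbb-bs. How the authors' counting treated reads that match both copies is not given in the sources used here. The level of a single copy is therefore uncertain. If such reads were left out, the sum of a pair would be too low as well. How far the sums and the ratio of beta to alpha are affected was not tested.

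The alpha genes lie on chromosome 11 (forward strand), the beta genes on chromosome 7 (reverse strand), Alas2 on chromosome X and Slc4a1 on chromosome 11. Promoters are shown because the alpha copies are near-identical there as well, while the beta copies are not. RefSeq promoter windows (GRCm38.p6; the counts were made on GRCm39) were found for 5 of the 6 genes. The 120 bases before each start site are printed 5′ to 3′ on the gene's strand. Capitals mark matches, on either strand, to AGATAA or TGATAA (bound by GATA factors), CACCC (bound by KLF1), CCAAT and TATAAA.
Hba-a1, chr11:32283552-32283671, forward: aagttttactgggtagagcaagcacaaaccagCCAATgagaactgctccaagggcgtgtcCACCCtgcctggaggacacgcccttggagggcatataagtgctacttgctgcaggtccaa
Hba-a2, chr11:32296372-32296491, forward: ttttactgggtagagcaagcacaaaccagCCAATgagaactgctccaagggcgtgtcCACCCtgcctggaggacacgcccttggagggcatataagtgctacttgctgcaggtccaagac
Hbb-bs, chr7:103827929-103828048, reverse: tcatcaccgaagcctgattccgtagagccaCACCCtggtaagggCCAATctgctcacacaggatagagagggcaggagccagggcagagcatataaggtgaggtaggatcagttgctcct
Hbb-bt, chr7:103813924-103814043, reverse: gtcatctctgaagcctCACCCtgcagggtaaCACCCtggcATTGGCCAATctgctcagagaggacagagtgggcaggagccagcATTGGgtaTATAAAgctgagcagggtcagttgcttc
Alas2, chrX:150547297-150547416, forward: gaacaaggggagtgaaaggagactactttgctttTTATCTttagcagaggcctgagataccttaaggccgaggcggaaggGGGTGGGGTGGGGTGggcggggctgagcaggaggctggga
The windows of Hba-a1 and Hba-a2 share an unbroken run of 297 of 300 bases, and the longest run shared by Hbb-bs and Hbb-bt is 14 bases. In the 250 bases before the start site, CACCC was found 2 times in each alpha gene, 1 time in Hbb-bs and 3 times each in Hbb-bt and Alas2, and 52% of 32851 promoters held it. CCAAT was found in all 4 globin genes and not in Alas2, against 33.8% of promoters. In Hbb-bt the CCAAT matches include a pair on opposite strands that form the single run ATTGGCCAAT. AGATAA was found in Hbb-bs and Alas2 (9.99% of promoters), TGATAA in both alpha genes (7.94%) and TATAAA in Hbb-bt and Alas2 (12.4%). Some of these matches lie upstream of the bases printed.

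Reads of C1qtnf3 and of the sex-linked genes Xist and Ddx3y went against the labels of 5 libraries. Treatment was contradicted in 4 (PBS female 2, collagen domain female 1, collagen domain female 3 and PBS male 1), where a PBS library held over 1000 C1qtnf3 reads or a collagen domain library held fewer. Sex was contradicted in 4, with Ddx3y above Xist in PBS female 2 and collagen domain female 1, and Xist above Ddx3y in PBS male 1 and collagen domain male 3. Groups below follow the labels throughout, each direction therefore refers to the libraries so labelled, and the fits for treatment and for sex are also given for the 7 libraries that went against neither label (4 PBS, 3 collagen domain). Totals ran from 39272127 to 52323985 reads per library. Mitochondrial genes took 7.37 to 9.86% of reads and ribosomal protein genes 1.08 to 2.00%.

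Haemoglobin reads were a small share of every library and differed 2.26-fold between the extremes. The 4 haemoglobin genes together held 0.0404% of reads in collagen domain female 3 (95% Wilson interval 0.0398 to 0.0410%), the lowest library, and 0.0915% in collagen domain male 2 (0.0906 to 0.0924%), the highest. These intervals cover counting error only. The other collagen domain libraries held 0.0430% (female 2), 0.0580% (female 1), 0.0561% (male 1) and 0.0725% (male 3). Among PBS libraries the shares were 0.0522, 0.0615 and 0.0615% in females 1 to 3 and 0.0784, 0.0872 and 0.0876% in males 1 to 3. The 3 PBS male libraries were thus above all 6 female libraries, while the collagen domain males spanned the range from below some females to the top of the series.

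Levels are given in CPM (reads scaled to the size of the library, with TMM factors), and per kilobase of annotated exon where genes are compared. Per kilobase, the mean level over 12 libraries was highest for Hbb-bs, at 300 ± 91.2 (SD, n = 12), followed by Hbb-bt at 210 ± 61.7, Hba-a1 at 194 ± 52.8 and Hba-a2 at 185 ± 44.0. Within a library Hbb-bs stood above Hbb-bt in all 12 libraries, while Hbb-bt stood above Hba-a1 in 8 and Hba-a1 above Hba-a2 in 9. The annotated exon covers 812 bases in Hba-a1, 667 in Hba-a2 and 703 in Hbb-bt. The longest coding transcript has 699, 554 and 703 bases in the same order. By transcript length the alpha levels would be higher and that of Hbb-bt unchanged, so the order of these genes depends on the length used. Alas2 followed far below at 1.63 ± 0.449 and Slc4a1 at 0.0588 ± 0.0358 CPM per kilobase. Slc4a1 had only 4 to 27 reads in a library and Alas2 89 to 258, so their levels carry much more counting error than the 3096 to 13539 reads of a single globin gene.

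The alpha genes were lowest in collagen domain female 3 and highest in collagen domain male 2. Hba-a1 stood at 105, 156 and 176 CPM in PBS females 1 to 3, at 130, 126 and 88.6 CPM in collagen domain females, at 198, 191 and 184 CPM in PBS males, and at 134, 238 and 161 CPM in collagen domain males. Hba-a2 stood at 96.5, 128 and 129 CPM in PBS females, 107, 102 and 72.1 CPM in collagen domain females, 145, 157 and 136 CPM in PBS males, and 97.8, 176 and 132 CPM in collagen domain males. The treatment arms overlapped for both genes, and the PBS males lay close together where the other groups were wide.

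The beta genes followed another order, with PBS male 3 at the top and collagen domain female 2 at the bottom. Hbb-bs stood at 209, 202 and 180 CPM in PBS females 1 to 3, at 214, 120 and 148 CPM in collagen domain females, at 264, 318 and 354 CPM in PBS males, and at 197, 300 and 257 CPM in collagen domain males. Hbb-bt stood at 134, 129 and 122 CPM in PBS females, 139, 80.9 and 93.6 CPM in collagen domain females, 173, 200 and 226 CPM in PBS males, and 121, 188 and 162 CPM in collagen domain males. For both genes 5 of the 6 labelled males lay above every labelled female, and collagen domain male 1 lay among the females.

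Alas2 had the same lowest and highest libraries as the alpha genes. It stood at 2.25, 3.56 and 3.87 CPM in PBS females 1 to 3, at 3.78, 3.54 and 2.07 CPM in collagen domain females, at 4.48, 4.97 and 4.45 CPM in PBS males, and at 3.66, 6.01 and 4.37 CPM in collagen domain males. Slc4a1 was sparse, with 4, 14 and 14 reads in PBS females, 24, 18 and 5 in collagen domain females, 7, 7 and 14 in PBS males, and 5, 27 and 14 in collagen domain males. Its lowest and highest libraries lay 7.53-fold apart in CPM, against 2.45 to 2.95-fold for the other 5 genes.

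**Figure D1:**
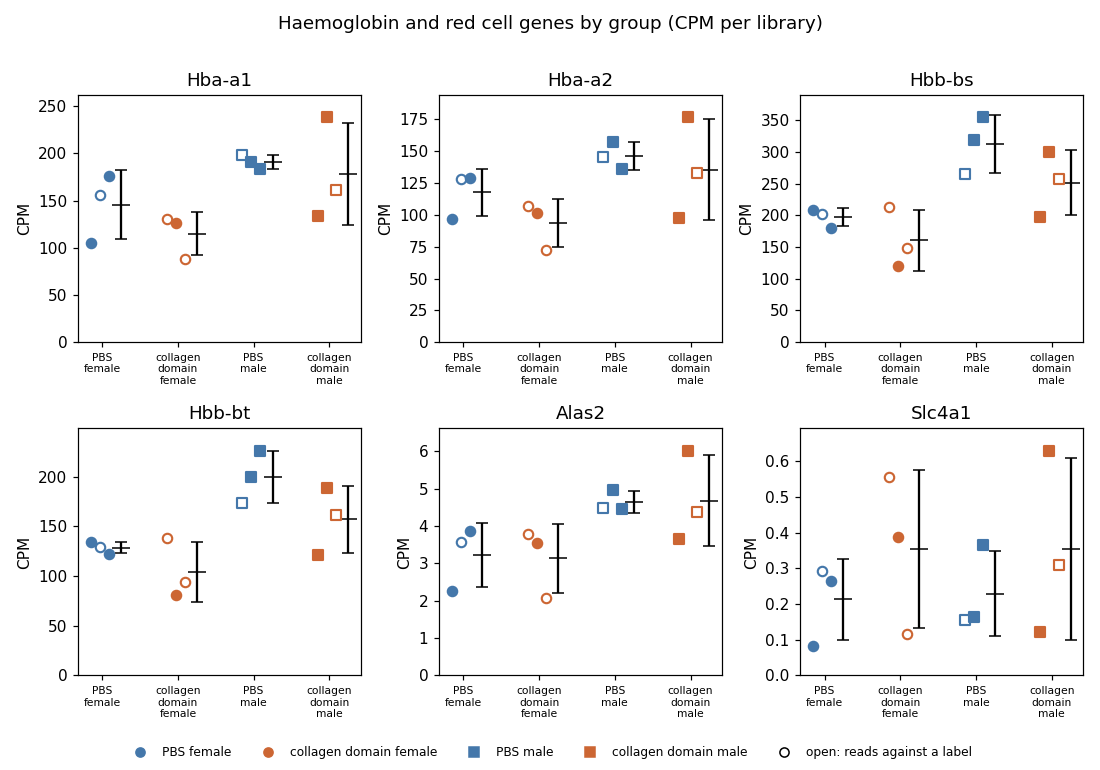
Level of each of the 6 genes in CPM (vertical axes, from 0) in the 4 groups, with 1 point per library and the mean and SD of each group (n = 3) as a bar. Open symbols are the 5 libraries whose C1qtnf3 or sex-linked reads went against a label. Collagen domain male 2 is the highest library for Hba-a1, Hba-a2, Alas2 and Slc4a1, and PBS male 3 for Hbb-bs and Hbb-bt.

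The comparison of collagen domain with PBS, over both sexes, asks whether the content of red cell transcripts moved with treatment. No member passed edgeR's quasi-likelihood test (adjusted p = 1 for each of the 6 after Benjamini-Hochberg adjustment over 19145 genes), and neither did any other gene, a background of 0% called. The 4 haemoglobin genes were all fitted lower in collagen domain libraries. Mean levels were 164 ± 42.6 CPM in PBS and 131 ± 40.7 CPM in collagen domain libraries for Hbb-bt and 255 ± 70.0 against 206 ± 66.8 CPM for Hbb-bs (SD, n = 6 each), with every pair of arms overlapping. The fitted log2 fold changes were -0.32 (SE 0.134) for Hbb-bt and -0.30 (SE 0.138) for Hbb-bs, and -0.22 for both Hba-a1 (SE 0.160) and Hba-a2 (SE 0.143). By edgeR's unadjusted p, which counts all libraries, 2 members were under 0.05 (Hbb-bt 0.0328 and Hbb-bs 0.0477), as were 1.85% of all genes tested. That count was 0 without any 1 of PBS female 1, collagen domain female 2, collagen domain female 3, PBS male 2, PBS male 3 or collagen domain male 1, and 4 without collagen domain male 2. Leaving out 1 library moved Hba-a1 between -0.36 and -0.14, Hba-a2 between -0.34 and -0.14, Hbb-bs between -0.42 and -0.23 and Hbb-bt between -0.44 and -0.25. Alas2 had a log2 fold change of -0.01 (SE 0.177), with a 95% interval of 0.779 to 1.26 for its fold. Slc4a1 had 0.69 (SE 0.457), with an interval of 0.865 to 3.00-fold, and 0.41 without collagen domain male 2. The median over the 6 members was -0.22 and over all genes 0.00.

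Without the 5 libraries that went against a label, the beta genes had larger differences and the alpha genes smaller ones. The log2 fold change was then -0.56 for both Hbb-bs (SE 0.162) and Hbb-bt (SE 0.161), with an edgeR adjusted p of 0.681 for each, against -0.09 (SE 0.235) for Hba-a1 and -0.13 (SE 0.205) for Hba-a2. Alas2 had 0.09 (SE 0.242) and Slc4a1 0.75 (SE 0.633). In these 7 libraries Hbb-bs averaged 265 ± 84.0 CPM in 4 PBS and 206 ± 90.2 CPM in 3 collagen domain libraries, and the arms overlapped. Ribosomal protein genes took 1.65 ± 0.413% of reads in these 4 PBS and 1.21 ± 0.114% in these 3 collagen domain libraries (SD), with overlap. Over all 12 libraries the means were 1.56 and 1.41%. That share moved with the ratio of beta to alpha reads, as described below. Its part in the differences given here was not tested.

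Within each sex no member passed either, with 0% of genes called in females and 0% in males. In females the edgeR log2 fold changes of the haemoglobin genes lay between -0.34 and -0.30. These values moved with single libraries: Hbb-bs was -0.56 without collagen domain female 1 and -0.12 without collagen domain female 2, Hbb-bt was -0.56 and -0.15 in the same fits, Hba-a1 was -0.53 without PBS female 1 and -0.18 without PBS female 3, and Hba-a2 was -0.17 without collagen domain female 3. In males Hbb-bs (-0.31, SE 0.205) and Hbb-bt (-0.35, SE 0.198) were at a like size, and Hba-a1 (-0.10, SE 0.230) and Hba-a2 (-0.11, SE 0.206) nearer to 0. Without collagen domain male 1 Hbb-bs and Hbb-bt were -0.17 and -0.19 in males. The 7 libraries that went against neither label gave -0.71 for Hbb-bs and -0.68 for Hbb-bt in females, and -0.46 and -0.48 in males, with -0.17 (females) and -0.03 (males) for Hba-a1. Collagen domain female 2 was the only collagen domain female left among them, and was the lowest library of all for both beta genes. The female values therefore rest on that single library. No member was called in those fits, and 1 gene of 19661 was called in each sex. The test of the difference between the sexes, the interaction of treatment and sex, called 0% of genes, and the members' interaction terms ran from -0.07 for Slc4a1 (SE 0.959) to 0.24 for Hba-a1 (SE 0.326).

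The comparison of labelled males with labelled females gave larger differences than treatment in the haemoglobin genes and Alas2. Mean levels were 179 ± 37.5 CPM in females and 282 ± 54.8 CPM in males for Hbb-bs, and 116 ± 23.6 against 178 ± 35.7 CPM for Hbb-bt (SD, n = 6 each). Hba-a1 averaged 130 ± 32.1 against 184 ± 35.3 CPM and Alas2 3.18 ± 0.799 against 4.66 ± 0.785 CPM. The fitted folds were 1.58 for Hbb-bs (95% interval 1.30 to 1.90), 1.53 for Hbb-bt (1.27 to 1.84), 1.46 for Alas2 (1.15 to 1.86), 1.42 for Hba-a1 (1.15 to 1.77) and 1.34 for Hba-a2 (log2 fold change 0.42, SE 0.144). Slc4a1 had 1.02-fold (0.551 to 1.91).

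Whether this passed the threshold depended on the tool. By edgeR 0% of genes and no member was called, with an adjusted p of 1 for each, although Hbb-bs and Hbb-bt ranked 7 and 9 of 19145 by unadjusted p (0.000471 and 0.000625 by edgeR). Unadjusted p was under 0.05 for 5 of the 6 members and for 1.97% of all genes. DESeq2 called 8 genes (0.0418%), 2 of them Hbb-bs (adjusted p = 0.0161) and Hbb-bt (adjusted p = 0.0274). In the other alternatives, all fitted with edgeR, the smallest adjusted p of any member ran from 0.275 to 1. The 7 libraries that went against neither label gave log2 fold changes of 0.90 for Hbb-bs (SE 0.163, edgeR adjusted p = 0.470) and 0.82 for Hbb-bt (SE 0.162), 0.56 for Alas2 and 0.48 for Hba-a1. No member was among the 8 of 19661 genes called in that fit. Among the 4 libraries of contradicted sex, the labelled males lay above the labelled females. Summed haemoglobin was 781 CPM in PBS male 1 and 712 CPM in collagen domain male 3, where Xist was above Ddx3y. It was 615 CPM in PBS female 2 and 589 CPM in collagen domain female 1, where Ddx3y was above Xist. Collagen domain male 1, male by its label and its reads, had 550 CPM, less than PBS female 2 or collagen domain female 1. Whether the level follows the label or the sex-linked reads was not tested.

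**Figure D2:**
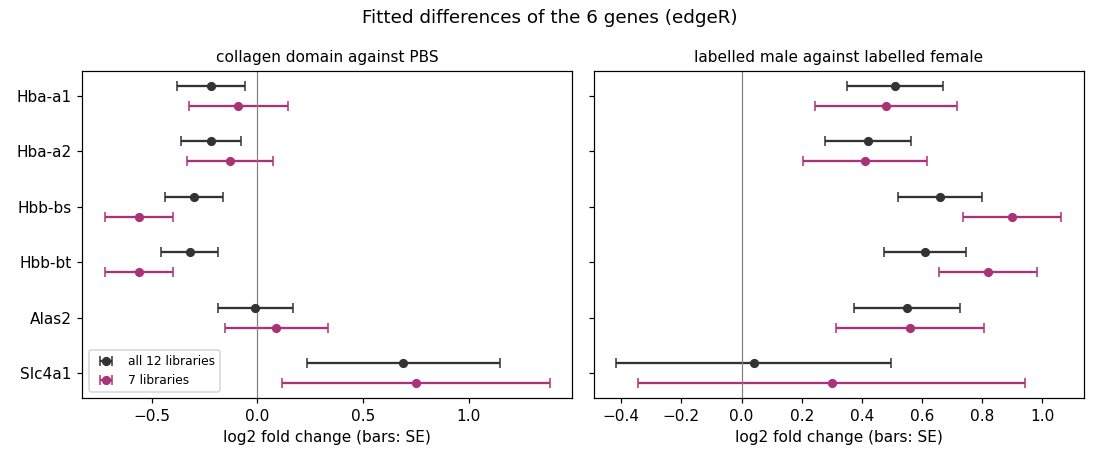
Log2 fold change of each gene (horizontal axes, bars are the SE of the edgeR fit) for collagen domain against PBS at left and labelled males against labelled females at right, from all 12 libraries and from the 7 that went against neither label. The beta genes Hbb-bs and Hbb-bt move from about -0.30 to -0.56 at left when the 5 libraries are left out. Ribosomal protein genes took on average 1.65% of reads in PBS and 1.21% in collagen domain libraries among those 7.

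The ratio between the chains differed between libraries more than the ratio between copies of 1 chain. Beta reads per alpha read ran from 0.883 in collagen domain female 2 and 0.994 in PBS female 3 to 1.70 in PBS female 1 and 1.82 in PBS male 3, a spread of 2.06-fold. PBS libraries averaged 1.41 ± 0.318 and collagen domain libraries 1.31 ± 0.239 (SD, n = 6 each), and labelled females 1.29 ± 0.323 and males 1.43 ± 0.220. Neither split separated the libraries. Hbb-bt reads per Hbb-bs read, by contrast, kept between 0.616 and 0.679.

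Libraries with a larger share of ribosomal protein reads had more beta per alpha. Across the 12 libraries the log2 ratio and that share had a Pearson r of 0.88 (Spearman 0.88, and r = 0.83 without the 2 libraries of most extreme share). Both measures come from the same libraries and depths. Ribosomal protein genes took 1.08% of reads in collagen domain female 2, the library of lowest ratio, and 2.00% in both PBS female 1 and PBS male 3, the libraries of highest ratio. The alpha transcripts are richer in G and C (57.2 and 56.9%) than the beta transcripts (51.3 and 50.8%). What part base composition or RNA quality has in the ratio was not tested. With that share added to the fit after its course was seen, the treatment differences were -0.30 (Hba-a1), -0.27 (Hba-a2), -0.25 (Hbb-bs) and -0.28 (Hbb-bt), none called by edgeR, and the sex differences 0.58, 0.47, 0.62 and 0.58 in the same order. Since the covariate was chosen because it moved with beta per alpha, these values do not bear on the relation itself.

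Over all 12 libraries Alas2 lay closer to the alpha than to the beta genes. Its log2 CPM had a Pearson r of 0.94 with Hba-a1 and 0.91 with Hba-a2, against 0.65 with Hbb-bs and 0.67 with Hbb-bt (12 libraries; without the 2 libraries farthest from the median of the globin gene 0.88, 0.79, 0.81 and 0.82). The 2 libraries left out differ between the globin genes. Spearman's rho was 0.96 and 0.97 with the alpha genes and 0.81 and 0.83 with the beta genes. Alas2 had 11.2 reads per 1000 alpha reads in PBS female 1, the lowest, and 16.0 in collagen domain female 1, the highest. The 6 PBS libraries averaged 12.9 ± 1.09 and the 6 collagen domain libraries 14.9 ± 1.14 (SD), with overlap. Between the copies of a chain Spearman's rho was 0.97 for alpha and 0.99 for beta. Slc4a1 had r between 0.17 and 0.61 with the other 5 genes.

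**Figure D3:**
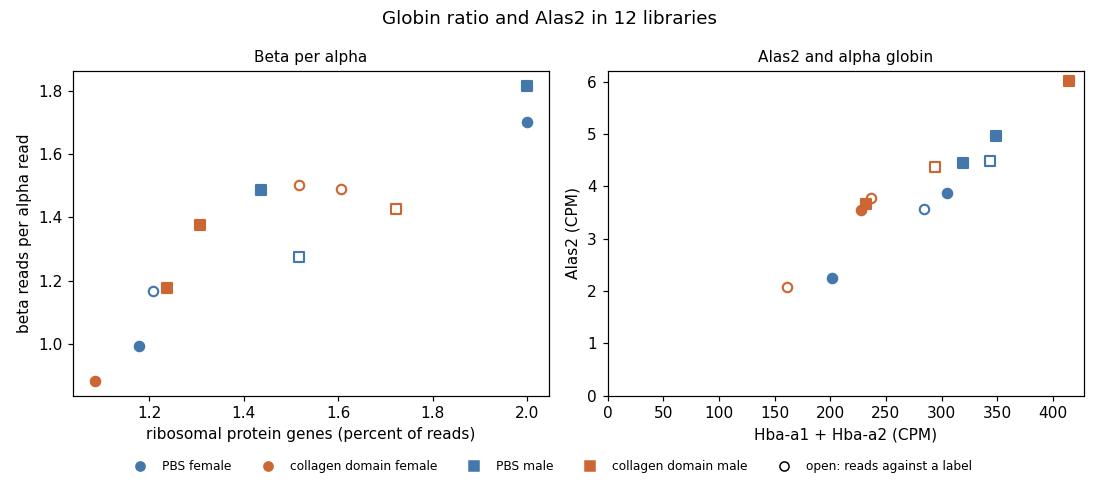
Left, beta reads per alpha read (Hbb-bs plus Hbb-bt over Hba-a1 plus Hba-a2) against the percent of reads on ribosomal protein genes, and right, Alas2 against summed alpha level in CPM, 1 point per library. The ratio runs from 0.883 to 1.82, and Alas2 is lowest and highest in the libraries where alpha is lowest and highest.

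The split of alpha reads between the copies fell into 3 separate bands. Hba-a2 took 42.2 to 42.6% of alpha reads in 5 libraries (collagen domain male 1, PBS female 3, PBS male 1, PBS male 3 and collagen domain male 2). It took 44.7 to 45.1% in 6 libraries (collagen domain females 1 to 3, PBS female 2, PBS male 2 and collagen domain male 3), and 47.9% in PBS female 1. The 95% Wilson intervals of neighbouring libraries did not overlap at the 2 gaps, which were 2.15 and 2.77 percentage points wide, while within a band neighbours lay at most 0.27 points apart. With 6900 to 17795 alpha reads in a library, the intervals cover counting error only. Both larger bands held PBS and collagen domain libraries and both labelled sexes, and the 3 collagen domain females all lay in the middle band.

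The split of beta reads showed no such gap. Hbb-bt took 38.1% of beta reads in collagen domain male 1 and 40.4% in PBS female 3, and the intervals of all neighbouring libraries in between overlapped. The bands were noticed in these data, and no test of them was made. Since Hba-a1 and Hba-a2 differ at 1 coding base and share most of their read-length windows, the share of a copy depends on how reads matching both were counted. The part of that counting, or of sequence differences between mice, in the bands was not tested.

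**Figure D4:**
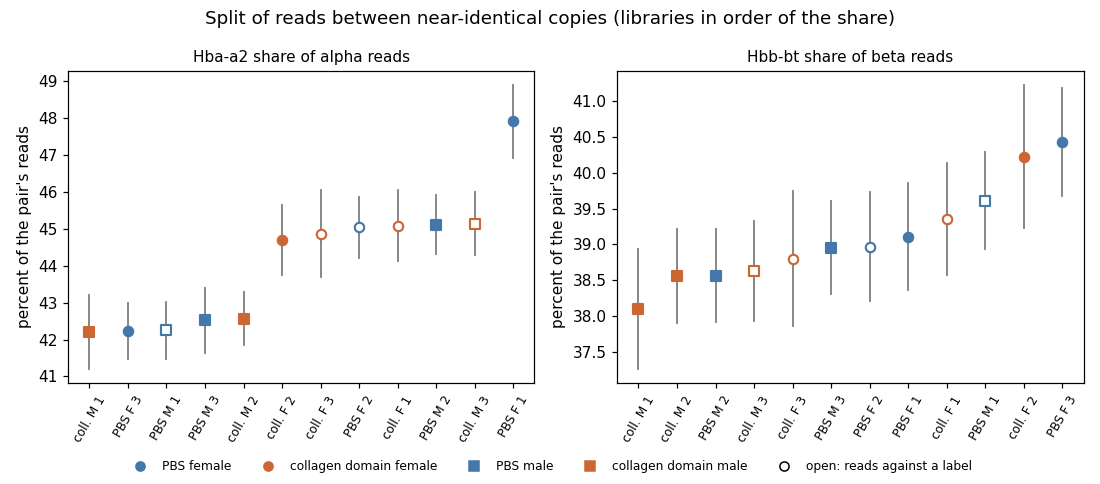
Share of Hba-a2 in the reads of both alpha genes at left and of Hbb-bt in those of both beta genes at right, in percent (axes do not start at 0), with 95% Wilson intervals as lines and the 12 libraries in order of the share. At left 5 libraries lie near 42%, 6 near 45% and PBS female 1 at 47.9%, while at right the values rise without a gap.

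Other globin chains were absent or nearly so. The genes Hba-x, Hbb-bh0, Hbb-bh1, Hbb-bh2 and Hbb-bh3 had 0 reads in all 12 libraries. Hbb-y had 37 reads in all, 14 of them in PBS female 1. The theta-like genes Hbq1a and Hbq1b had 590 and 205 reads in all, and neither was called. Their log2 fold changes between labelled males and females were 0.41 (SE 0.304) and 0.48 (SE 0.316). Of the globins of brain cells, Cygb (cytoglobin) had 1651 to 2803 reads in a library and Ngb (neuroglobin) 296 to 541. Between labelled males and females Cygb had a log2 fold change of -0.08 (SE 0.106) and Ngb 0.06 (SE 0.135), against 0.42 to 0.66 in the 4 haemoglobin genes.

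Other genes of haem synthesis and of the red cell had smaller median differences than the haemoglobin genes. None of the 14 genes of haem synthesis and iron supply was called for treatment or for sex, and their median log2 fold changes were 0.00 and 0.02. Slc25a37, the mitochondrial iron importer mitoferrin 1, had 0.15 (SE 0.0803) for treatment, and Alad, which acts after 5-aminolevulinate synthase, 0.41 (SE 0.253). Of 12 red cell enzymes 9 were tested and none was called, with medians of 0.00 and 0.04. All 9 were fitted higher in labelled males, by 0.01 to 0.16, less than any haemoglobin gene.

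The other red cell genes ranged from undetected to well expressed. Of 16 genes of the red cell membrane and skeleton 11 were tested and none was called, with medians of 0.04 for treatment and -0.04 for sex. Epb42 (protein 4.2 of the red cell membrane) had 30 reads over the 12 libraries and Rhag 5, while Sptb (beta spectrin) had 103728 and Dmtn (dematin) 127709. The erythroid transcription factors Gata1 and Gfi1b had 3 and 0 reads and Klf1 88, while Tal1 had 1768, Lmo2 9956 and Zfpm1 11819, and the erythropoietin receptor gene Epor 3076. A count of 0 allows up to 3 reads in a library, so Gfi1b was not detectable at this depth. Of 11 genes for clearance of haem and haemoglobin none was called. Hp (haptoglobin, which binds free haemoglobin) had 6 to 40 reads and was highest in collagen domain male 2, and Hmox1 (haem oxygenase 1) kept between 3.36 and 4.87 CPM.

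Markers of white blood cells were read beside the haemoglobin genes because blood carries both. The summed level of 13 neutrophil markers ran from 6.08 to 11.6 CPM in 11 libraries and was 43.6 CPM in collagen domain male 2, the library with most haemoglobin. By label, the PBS libraries ran from 6.68 to 11.6 CPM and the collagen domain libraries from 6.08 to 43.6 CPM, and the females from 6.08 to 10.6 CPM and the males from 8.44 to 43.6 CPM. In collagen domain male 2 S100a9 had 462 reads and S100a8 325. Elane, a marker of neutrophil precursors, had reads in only 4 libraries. By median over the 12 libraries the largest parts of the sum were Csf3r at 4.29 CPM and Mmp9 at 1.26 CPM, with S100a9 at 1.06 and S100a8 at 0.721 CPM. Outside collagen domain male 2 the sum thus rested largely on Csf3r, and whether those reads came from neutrophils was not tested. None of the 8 neutrophil markers tested was called by edgeR between males and females, and 7 had an unadjusted p under 0.05, with a median log2 fold change of 1.74. Without collagen domain male 2 that was 1 of 8 and a median of 0.68. Without the same library the sex differences of the members were 0.38 (Hba-a1) and 0.31 (Hba-a2), and Hbb-bs kept at least 0.58 whichever single library was left out. Over the 12 libraries the neutrophil and haemoglobin sums had a Pearson r of 0.64 on the log2 scale (Spearman 0.83, and r = 0.65 without the 2 farthest libraries). The part of neutrophil RNA in the differences of the 6 genes was not tested.

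**Figure D5:**
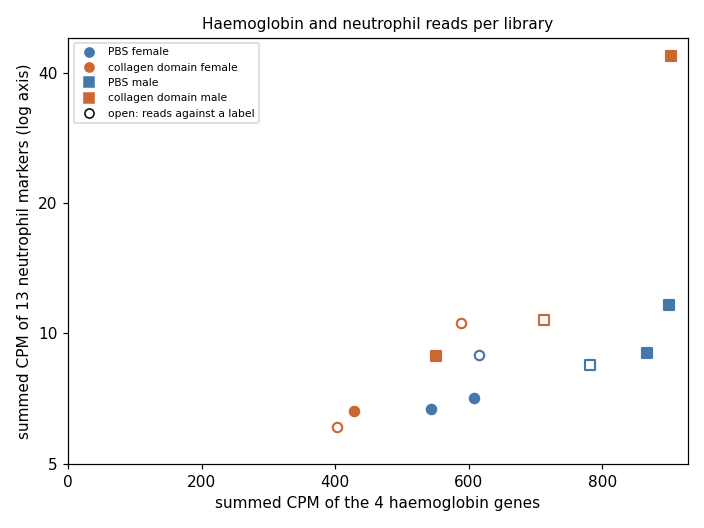
Summed level of 13 neutrophil markers (log axis, CPM) against the summed level of the 4 haemoglobin genes (CPM), 1 point per library. Collagen domain male 2 lies alone at 43.6 CPM, and the other 11 libraries lie between 6.08 and 11.6 CPM.

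Among the marker sums of other cell types, that of 6 microglia markers had the highest Pearson correlation with the log2 haemoglobin sum over the 12 libraries, 0.79 (Spearman 0.71, and r = 0.75 without the 2 farthest libraries). The microglia sum ran from 199 to 237 CPM in labelled females and from 233 to 254 CPM in labelled males, and from 199 to 254 CPM in PBS and 199 to 238 CPM in collagen domain libraries. Between the sexes 3 of the 6 markers had an unadjusted edgeR p under 0.05, with a median log2 fold change of 0.14, and none was called. P2ry12 and Cx3cr1, receptors of microglia, both had 0.18. The part of microglia in the sex differences of the haemoglobin genes was not tested. The correlations of the other sums were 0.45 for blood monocytes (Spearman 0.50), -0.48 for platelets (-0.63), -0.49 for mural cells (-0.60), -0.33 for neurons (-0.36), -0.36 for B cells (-0.45), 0.26 for oligodendrocytes (0.41), 0.05 for astrocytes (0.14), 0.03 for choroid plexus (0.03), -0.02 for T and NK cells (-0.16) and -0.01 for endothelium (0.18). Without the 2 farthest libraries they were 0.32, -0.40, -0.19, -0.08, -0.25, 0.33, 0.30, -0.32, 0.23 and -0.05 in the same order. The 10 platelet markers summed to 8.66 to 11.2 CPM, and Pf4 (platelet factor 4) had a treatment log2 fold change of -0.76 (SE 0.206), which edgeR did not call. All 10 choroid plexus markers were fitted higher in collagen domain libraries, with a median of 0.38 and none called. Their part in the treatment differences of the haemoglobin genes was not tested. Cerebellum and hindbrain markers were much higher in 5 libraries, those where a score of these markers was above its mean. Their sum was 1436 CPM in collagen domain male 2, 1296 CPM in PBS male 3 and 1236 CPM in collagen domain female 2. It was 1125 CPM in PBS female 2, 774 CPM in PBS female 3, and 266.5 to 305 CPM in the other 7. Summed haemoglobin averaged 691 ± 206 CPM in the 5 libraries and 635 ± 160 CPM in the other 7 (SD). What tissue beyond forebrain the 5 held was not tested. With the score in the fit, treatment differences were -0.32 (Hbb-bt), -0.31 (Hbb-bs), -0.17 (Hba-a2) and -0.14 (Hba-a1), none called by edgeR.

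By Pearson's r of log2 CPM, the 5 genes most like the summed haemoglobin level, among 19139 tested genes outside the members, were weakly expressed. Over 12 libraries Gm3629 and Gm10130 had a Pearson r of 0.85, Slc15a3, a lysosomal peptide transporter, 0.82, and Gm12854 and Gm29443 0.81. They had between 6 and 95 reads in a library. Ranked by Spearman's rho in place of Pearson's r, only Gm12854 stayed among the 5, beside Zfp300, Tspan2, Tlr13 and Adgre1. By Pearson's r with the sum Hbb-bt had 0.96, Hbb-bs 0.95, Hba-a2 0.91, Hba-a1 0.89, Alas2 0.82 and Slc4a1 0.32, and by Spearman's rho 0.90, 0.88, 0.95, 0.94, 0.93 and 0.44 in the same order. The first 4 are parts of the sum.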

How the data were processed

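Forebrain RNA of 12 libraries was made into libraries with a TruSeq version 2 kit and read in pairs of 75 bases, per the labels' protocols. The authors deposited raw read counts per Ensembl gene ID. STAR, DESeq2 and the GRCm39 build are named, without role or version, per the submitters' processing notes, and how reads matching several genes were counted is not given in the sources used here. Symbols came from GENCODE M21 for 42462 of 43629 IDs, and the 1167 others held 0.144% of reads. Groups are those of the labels. Tests on the counts used edgeR 4.0.16 in R 4.3.3 (filterByExpr, TMM, robust quasi-likelihood F-test, two-sided, Benjamini-Hochberg over 19145 genes, threshold 0.05). Treatment and sex effects came from an additive fit, within-sex effects and the interaction from a fit of 4 groups. Intervals of a fold are 95% normal intervals from the SE. Libraries of 1 group differed by more than sampling noise (chi-square per degree of freedom 11.1 to 94.6). Steps were tested on simulated data. Some genes of the lists are not reported here.

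Alternatives were DESeq2 1.42.0, relative log expression factors, no filter, a replicate block, each library left out, libraries against labels left out, copies summed, covariates, mitochondrial genes left out and a threshold of 0.1. The ribosomal covariate and the neutrophil values without 1 library were added after the data were seen. The members and lists were chosen with earlier results of these data known. Named genes are the 6 members, up to 4 genes of smallest treatment p per list, the 5 genes most like the haemoglobin sum by Pearson r of log2 CPM (prior count 2), and the label checks. Hbb-y and the other globin and erythroid genes at or near 0 reads were named after their values were seen. So were Sptb, Hmox1, S100a8, Elane, Csf3r and the Spearman matches. Totals of 39272127 to 52323985 reads set the precision, so genes under 30 reads a library, as Slc4a1, are the least certain. Plots used matplotlib 3.10.9 under Python 3.11.15.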

Additional observations from a re-analysis of the deposited data

Results flagged for a closer look

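Among 76 groups of 6 libraries checked for a library far from the rest, 3 held one, and chance flags about 1 in 20. The neutrophil sum of collagen domain male 2, 43.6 CPM, lay far above the next collagen domain library (10.7 CPM) and the next male library (11.6 CPM). It was the library with the largest haemoglobin share as well. The platelet sum of collagen domain male 1, 11.2 CPM, lay above the next collagen domain library (9.99 CPM). No level or ratio of Hba-a1, Hba-a2, Hbb-bs, Hbb-bt, Alas2 or Slc4a1 was so flagged.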

How the results depend on the processing

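Of 690 alternative values of the members' log2 fold changes, 630 kept their direction and side of the threshold, 58 changed sign and 2 passed the threshold. DESeq2 called 2 members between the sexes (Hbb-bs 0.66, Hbb-bt 0.62) and 8 genes, with 3 for treatment in males and 1 for the interaction. Without the 4 libraries against their treatment label 2 genes were called for treatment, 1 in females, 1 in males and 1 between the sexes, and without the 5 against either label 2, 1, 1 and 8, with no member among them. Leaving out each library gave 0 to 1 genes for treatment in males (1 without collagen domain female 3) and 0 to 5 between the sexes (5 without PBS male 3). The cause was not tested.

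No value that changed sign was called. For Alas2 these were, without the 4 libraries, 0.07 for treatment, 0.20 in females, 0.00 in males and -0.21 for the interaction; without the 5, 0.09, 0.20 and -0.18 (interaction); with the hindbrain covariate 0.06, 0.09 and -0.06 (interaction); and with the ribosomal covariate -0.12 in males and -0.07 for the interaction. The interaction of Hbb-bs and Hbb-bt was 0.28 and 0.24 without the 4, 0.25 and 0.19 without the 5, and 0.07 and 0.03 with the ribosomal covariate. Leaving out 1 library gave Alas2 -0.12 to 0.09 for treatment, -0.24 to 0.18 in females, -0.21 to 0.16 in males and -0.17 to 0.26 for the interaction. In males it gave Hba-a1 -0.37 to 0.06, Hba-a2 -0.34 to 0.08 and Slc4a1 -0.04 to 1.14. For the interaction it gave Hba-a1 -0.03 to 0.42, Hba-a2 -0.01 to 0.41, Hbb-bs -0.19 to 0.25, Hbb-bt -0.20 to 0.21 and Slc4a1 -0.76 to 0.42, and between the sexes Slc4a1 -0.28 to 0.27.

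Same-numbered libraries deviated together with r from -0.38 to 0.44, and libraries of different number with r from -0.53 to 0.44. These ranges overlap, so they cannot show whether the numbers pair the libraries, and the main fits did not pair them. The replicate block called 0 genes and 0 members in all 5 comparisons, and turned Alas2 in males to -0.01 and Slc4a1 between the sexes to -0.01. With mitochondrial reads left out of the total, haemoglobin shares rose in all 12 libraries, to 0.0441 to 0.1%. Read numbers limit Slc4a1 and the near-absent red cell genes most.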
